A study of Mus musculus with 17 samples.

Results

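Lysosomal hydrolases and membrane proteins were examined in limb muscle of mice without dystrophin, with and without extra utrophin. The genes were given as a list of 35 names, and cathepsins were left out of it. A gene was measured where at least 1 probe set carried that single symbol, and the brightest such probe set, by its mean over the 17 arrays, stood for it. Of the 35 listed genes, 33 were measured, among 12393 genes in all. Cd63, a tetraspanin of late endosomes and lysosomes, and Atp6v0d2, a subunit of the proton pump, had no such probe set.

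Total RNA of tibialis anterior, the fast-fibred muscle in front of the shin, was hybridised to 17 single-channel Affymetrix arrays, 1 per animal. The groups were 5 fiona mice, which carry a transgene for high utrophin on the mdx background, 6 mdx mice, which lack dystrophin, and 6 normal mice. Fiona and mdx mice thus share the lack of dystrophin, and utrophin is the related protein that can take dystrophin's place at the fibre membrane. The labels give all animals as males of 56 days, with the muscles of both legs pooled in each animal and 8 µg of RNA labelled per array. The promoter of the transgene and the number of founder lines are not given in the sources used here. Both comparisons with mdx mice ask how loss of dystrophin changes gene expression and how expression differs when utrophin is raised in muscle without dystrophin.

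The lysosome is the acid compartment in which cells break down proteins, lipids, glycans and glycogen taken up from outside or delivered by autophagy. A proton pump in its membrane keeps it acid, soluble hydrolases do the digestion, and membrane proteins protect the compartment, carry products out and release ions. Nearly all cells have lysosomes, and they are abundant in macrophages. Many lysosomal genes are under the control of Tfeb and its relatives, which bind a DNA element with the letters CACGTG at its core, and inherited loss of several of these enzymes causes storage diseases, some of which affect muscle.

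Several arrays went against their labels or stood apart. Dmd was at 3.23 to 3.53 on the log2 scale in fiona, 3.27 to 3.52 in mdx and 6.33 to 6.88 in normal muscle, so the groups without dystrophin lay below all normal arrays. On a pair of Utrn probe sets that followed the transgene, fiona arrays 2 and 5 lay less than 1 log2 unit above the highest mdx array, and the other 3 fiona arrays lay further above it on at least 1 of these probe sets. High Xist with low Eif2s3y, a Y-linked gene, was seen on 7 of 17 arrays, which goes against the label male: on 4 of 5 fiona, 2 of 6 mdx and 1 of 6 normal arrays. Both genes were above their midpoints on mdx array 6, which is not among the 7 arrays that are called arrays of high Xist below. The largest component of the spread within groups held 42.9% of the residual variance and divided the arrays by its sign into set 1 (2 fiona, 3 mdx and 3 normal arrays) and set 2 (3 arrays of each group). Array medians ran from 3.52 to 3.82.

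The stretches of DNA before the starts of 30 of the 35 listed genes were read from a RefSeq table of the GRCm38.p6 build, and 6 of them are shown because they hold the elements counted below or lack them in genes that the results turn on. Each runs 5′ to 3′ on the gene's own strand and ends at the base before the start.
The stretches of Lamp1 (chr8:13159011-13159160, plus strand), Mcoln1 (chr8:3500369-3500518, plus strand) and Gaa (chr11:119267813-119267962, plus strand) have CACGTG in capitals, and those of Hexa (chr9:59539390-59539539, plus strand) and Npc2 (chr12:84773113-84773262, minus strand) hold no copy of it.
The stretch of Grn (chr11:102430257-102430506, plus strand) has GAGGAA, the core letters bound by the myeloid factor PU.1, in capitals. Among those not shown are Glb1 and Atp6v1a, which hold CACGTG and fell in fiona against mdx muscle. Gla, Lipa, Ids and Manba, which hold GAGGAA and were called in no comparison, are not shown either.
Lamp1: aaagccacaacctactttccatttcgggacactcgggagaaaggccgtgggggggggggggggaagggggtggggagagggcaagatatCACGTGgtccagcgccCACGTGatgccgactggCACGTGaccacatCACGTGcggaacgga
Mcoln1: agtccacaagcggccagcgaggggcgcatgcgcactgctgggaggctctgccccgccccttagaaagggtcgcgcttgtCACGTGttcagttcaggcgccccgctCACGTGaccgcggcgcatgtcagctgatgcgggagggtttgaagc
Gaa: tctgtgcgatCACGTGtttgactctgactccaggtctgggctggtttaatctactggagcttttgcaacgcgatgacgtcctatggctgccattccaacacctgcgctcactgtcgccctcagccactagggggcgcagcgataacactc
Hexa: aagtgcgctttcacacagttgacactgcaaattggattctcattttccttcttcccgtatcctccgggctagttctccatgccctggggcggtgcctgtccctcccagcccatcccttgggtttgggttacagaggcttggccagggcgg
Npc2: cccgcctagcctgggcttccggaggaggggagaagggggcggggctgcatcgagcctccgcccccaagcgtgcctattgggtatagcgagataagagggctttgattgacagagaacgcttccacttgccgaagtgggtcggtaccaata
Grn: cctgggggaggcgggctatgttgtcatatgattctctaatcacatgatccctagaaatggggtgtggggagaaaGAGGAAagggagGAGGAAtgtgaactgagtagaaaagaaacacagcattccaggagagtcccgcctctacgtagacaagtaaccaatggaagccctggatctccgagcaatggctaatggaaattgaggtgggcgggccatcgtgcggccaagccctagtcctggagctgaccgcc

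Motifs were searched on both strands in the 300 bases from 250 before to 50 after each start. CACGTG, which reads the same on both strands, was present for 9 of 30 listed genes (30%), against 8.09% of the 27025 genes in the table and 10.8% of its 9887 genes that are on the array. The 9 were Lamp1, with 4 copies, Gla, Glb1, Naglu, Gaa, Sgsh, Atp6v1a, Mcoln1 and Cln3. All 9 also held the longer TCACGTG, which always lies inside a CACGTG match and was present in 4.29% of the table. It was absent from the windows of the 7 genes with a window that were called higher in mdx than in normal muscle. It was present in 2 of the 10 whose level fell in fiona against mdx muscle, Glb1 and Atp6v1a. It was also present in 7 of the 19 with a window that were called in no comparison. Among the latter, Naglu, Sgsh and Cln3 were at or under the control level on 16, 15 and 14 arrays. That level is the median of bacterial probe sets with no target added. A change in these dim genes could hardly be called, so their lack of calls does not show an unchanged level. GAGGAA or its reverse complement TTCCTC was present for 14 of 30 listed genes (46.7%), against 31.3% of the table. Of the 7 genes with a window called higher in mdx than in normal muscle, 4 held it, namely Laptm5, Gusb, Man2b1 and Grn. So did 6 of the 10 that fell in fiona against mdx muscle and 7 of the 19 called in no comparison. These matches describe letters in a window and do not show binding.

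In mdx muscle, 8 of the 33 measured genes were higher than in normal muscle and 0 were lower at an adjusted p under 0.05 (limma). They were Laptm5, Grn, Gusb, Ppt1, Npc2, Man2b1, Hexa and Asah1, with fold changes of 1.76 to 6.70. The share called higher was 24.2%, against 3.22% of all 12393 genes, and 1.44% of all genes were lower. The median difference of the 33 genes was 0.28 on the log2 scale, against -0.04 over all genes. Of the 33 genes, 7 had every mdx array above every normal array, against 2.54% of all genes, and all 7 were among the 8. All 8 stayed called when any single array was left out, and mdx array 1 was the highest mdx array for each of them. Within array set 1 and within array set 2 all 8 were higher in mdx muscle, with 3 of them called in set 2 alone. With the 7 arrays of high Xist left out, 5 of the 8 stayed called and Man2b1, Asah1 and Ppt1 did not.

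In fiona muscle, 11 of the 33 genes were lower than in mdx muscle and 0 were higher (limma, adjusted p under 0.05). They were Laptm5, Grn, Gusb, Npc2, Man2b1, Hexa, Atp6v1a, Ppt1, Lamp2, Asah1 and Glb1, at 1.75- to 4.38-fold lower levels, with Glb1 at least 1.47-fold lower. The share called lower was 33.3%, against 6.79% of all genes. Of all genes 32.1% were called higher, and with each array centred on its median, which shifts each difference by -0.12, the split was 5.28% higher and 6.33% lower. With that centring 9 of the 11 genes stayed called, and Ppt1 (adjusted p = 0.0799) and Atp6v1a (adjusted p = 0.0595) did not. The median difference of the 33 genes was -0.33, against 0.08 over all genes. Every fiona array lay below every mdx array in 5 of the 33 genes and in 2.4% of all genes. The 5 were Laptm5, Hexa, Man2b1, Npc2 and Grn. Every fiona array lay above every mdx array in 0 of the 33 genes and in 30.2% of all genes. The mdx arrays serve in both comparisons, so the calls in one are not independent of those in the other. Without fiona arrays 2 and 5, a choice made after seeing the data, 10 of the 11 stayed called and Ppt1 did not. Without the 7 arrays of high Xist, which leaves 1 fiona array against 4 mdx arrays and takes its spread from the other groups, 6 stayed called.

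**Figure D1:**
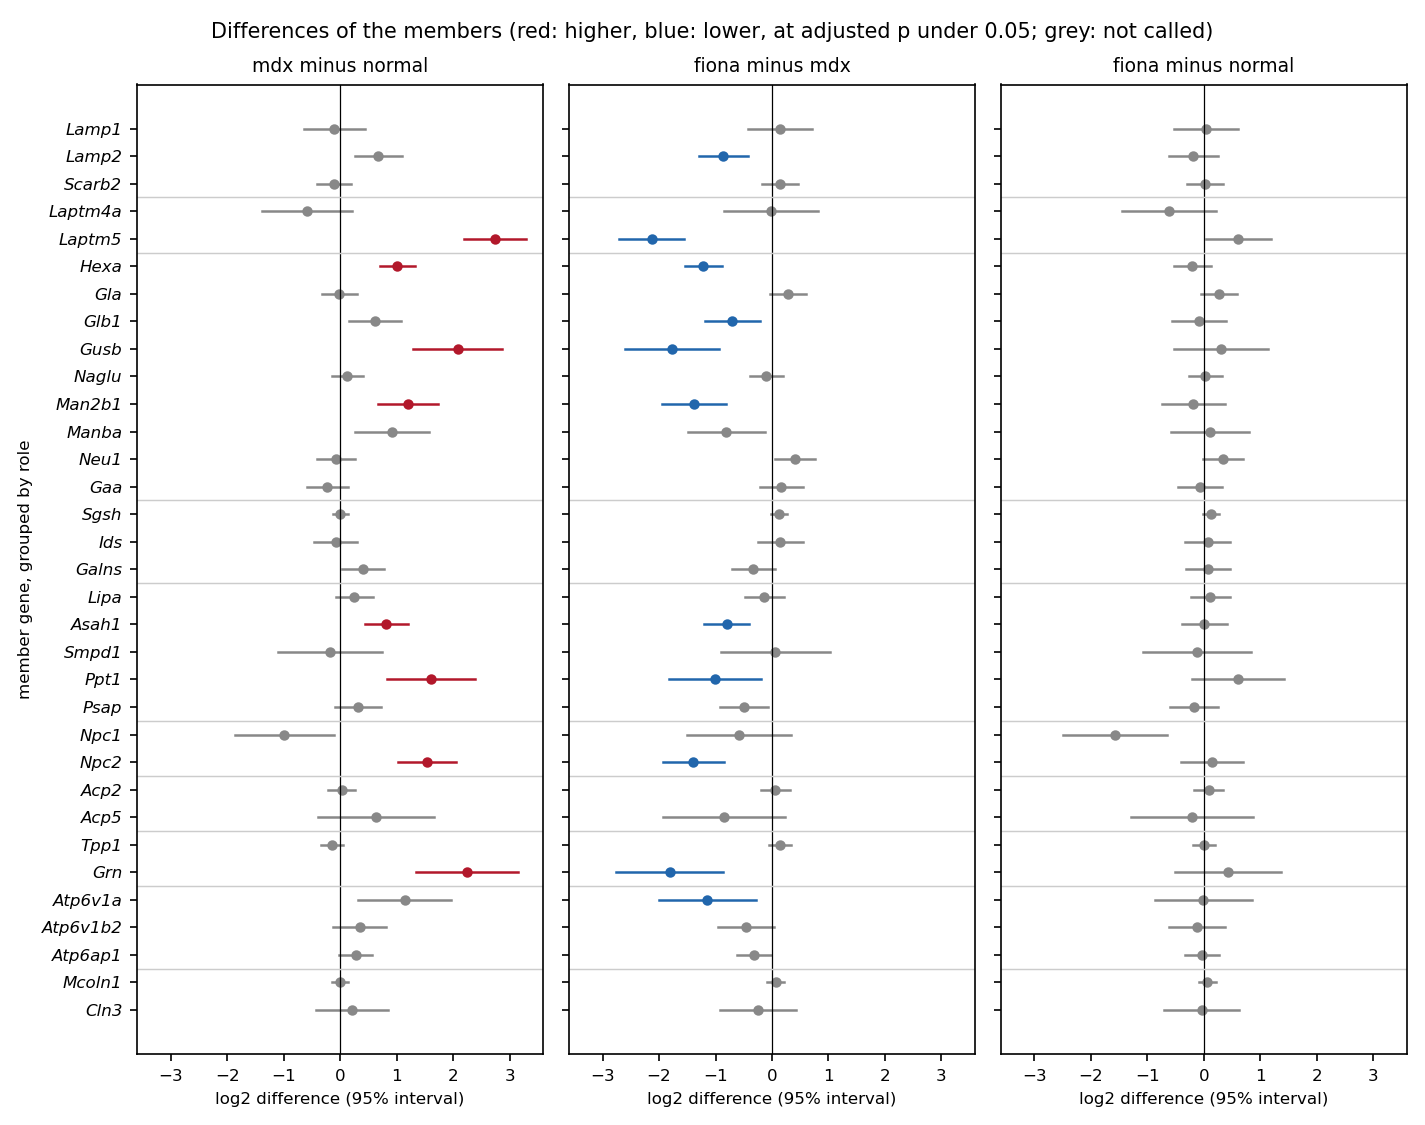
Log2 difference of each measured gene (point) with its 95% interval (line) for mdx minus normal, fiona minus mdx and fiona minus normal, with genes grouped by role down the page. Red points (8) were called higher, blue points (11) were called lower and grey points were not called, and the fiona minus normal panel holds grey points alone.

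Markers of some other cell types moved in the same comparisons. Beside the counts below, 3.22% of all genes were higher in mdx than in normal muscle. In fiona against mdx muscle 6.79% of all genes were lower and 32.1% higher. Of 22 macrophage markers, 14 were higher in mdx than in normal muscle and 15 were lower in fiona than in mdx muscle, and their mean level on an array ran from 4.08 to 4.62 in fiona, 6.08 to 7.03 in mdx and 4.04 to 4.62 in normal muscle. Cd68, a macrophage membrane protein of late endosomes, did not exceed the control level (bacterial probe sets with no target added) on any of the 5 fiona or 6 normal arrays, and was higher in mdx than in normal muscle by at least 4.01 on the log2 scale. Mpeg1 was higher by 5.36 and Tyrobp by 5.31, and both exceeded that level on every fiona and normal array. Of 8 fibroblast markers, 2 were higher in mdx than in normal muscle and 6 lower in fiona than in mdx muscle. Of 8 regenerating-fibre markers, 6 were higher and 7 lower in the same comparisons, and their mean level ran from 4.86 to 5.31 in fiona, 6.04 to 8.85 in mdx and 4.26 to 4.64 in normal muscle. Osteoclast markers, of which 5 of 8 were at or under the control level on every array, had no call between mdx and normal muscle. In fiona against mdx muscle 5 of the 8 were called higher, and 0 with each array centred on its median. Lymphocyte, neutrophil, endothelial and mature fast-fibre markers also had 0 calls between mdx and normal muscle. Against mdx muscle, fiona muscle had 6 of 9, 1 of 8, 0 of 7 and 1 of 11 of these called higher, and 1, 0, 0 and 0 with that centring. The part of these cells in the lysosomal results was not tested. In whole muscle, fewer cells of a type and less RNA per cell cannot be told apart.

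Laptm5, a lysosomal membrane protein of leukocytes that limits signalling from their receptors, had the largest change of the 33 genes in both comparisons. Its log2 level was 5.80, 7.55, 7.18, 7.26 and 6.95 in fiona arrays 1 to 5, ran from 8.62 through a median of 9.16 to 9.51 in mdx and from 5.79 through 6.37 to 6.71 in normal muscle. All mdx arrays stood above all others, while fiona and normal arrays overlapped. Laptm5 was 6.70-fold higher in mdx than in normal muscle (log2 difference 2.74 ± 0.26 SE, limma adjusted p = 1.04e-05). In fiona muscle it was 4.38-fold lower than in mdx muscle (-2.13 ± 0.27 SE, adjusted p = 0.000226). Between fiona and normal muscle the difference was 0.61, with an interval from 0.04 to 1.19 and an adjusted p of 0.221. The other Laptm5 probe sets were dim, at or under the control level on 5 and 14 of 17 arrays, and neither was called between mdx and normal muscle. For fiona minus mdx the first gave -1.02 (adjusted p = 0.0804) and the second, dimmer one was called at 0.10 (adjusted p = 0.0205). As deposited, 32.1% of all genes were called higher there. Centring each array on its median shifts each difference by -0.12, and the second probe set was not tested with that centring. Laptm4a, a related protein made in many tissues, averaged 10.41 ± 0.37 in fiona, 10.43 ± 1.05 in mdx and 11.02 ± 0.20 in normal muscle (SD, n = 5, 6 and 6, as for all such means here) and was not called. Its mdx arrays ran from 8.39 to 11.16, with array 1 alone below 10.

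Lamp1, Lamp2 and Scarb2 are major glycoproteins of the lysosomal membrane. Lamp2, needed for fusion of autophagosomes with lysosomes in muscle, was at 10.51, 9.81, 9.63, 9.59 and 9.94 in fiona arrays 1 to 5, ran from 10.16 through 10.78 to 11.11 in mdx and from 9.55 through 10.19 to 10.39 in normal muscle. Fiona array 1 lay above the lowest mdx array, and the other 4 lay below all of them. Lamp2 was 1.82-fold lower in fiona than in mdx muscle (-0.86 ± 0.21 SE, limma adjusted p = 0.0135). Between mdx and normal muscle its difference of 0.67 missed the threshold (adjusted p = 0.0643), while 2 of its other 3 probe sets were called higher in mdx muscle in a fit over all probe sets, by 1.07 (adjusted p = 0.00899) and 0.57 (adjusted p = 0.029). Lamp1, whose upstream stretch has 4 copies of CACGTG, averaged 11.38 ± 0.41 in fiona, 11.24 ± 0.43 in mdx and 11.34 ± 0.52 in normal muscle and was called in no comparison. Its arrays split by array set and not by group, since every array of set 2 lay above every array of set 1. Scarb2, which carries glucocerebrosidase to the lysosome, ran from 9.39 to 10.14 in fiona, 9.17 to 9.83 in mdx and 9.42 to 9.999 in normal muscle, and the groups overlapped throughout.

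Glycosidases, which cut sugars from glycans, glycolipids and glycogen, were the largest class with 9 measured genes. Of these, 3 were higher in mdx than in normal muscle and 4 lower in fiona than in mdx muscle. Of all genes 3.22% and 6.79% were called so. Gusb encodes beta-glucuronidase, which cuts glucuronic acid from glycosaminoglycans. It was at 5.42, 6.21, 4.60, 4.61 and 4.03 in fiona arrays 1 to 5, ran from 5.83 through 6.80 to 7.83 in mdx and from 4.23 through 4.58 to 5.47 in normal muscle. All mdx arrays lay above all normal arrays, and 1 fiona array, number 2, reached into the mdx range. Gusb was 4.23-fold higher in mdx than in normal muscle (2.08 ± 0.37 SE, limma adjusted p = 0.00325) and 3.42-fold lower in fiona than in mdx muscle (-1.77 ± 0.39 SE, adjusted p = 0.0133). Its second probe set gave 1.09 and -1.11, both called.

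Hexa encodes the alpha subunit of beta-hexosaminidase A, the enzyme of ganglioside breakdown that is missing in Tay-Sachs disease. It was at 8.90, 8.83, 8.16, 8.57 and 8.35 in fiona arrays 1 to 5, ran from 9.61 through 9.74 to 10.02 in mdx and from 8.34 through 8.91 to 9.02 in normal muscle. The mdx arrays stood apart with the smallest spread of the 3 groups for this gene (SD 0.14, against 0.31 in fiona and 0.31 in normal muscle). Hexa was 2.02-fold higher in mdx than in normal muscle (1.01 ± 0.15 SE, limma adjusted p = 0.000605) and 2.33-fold lower in fiona than in mdx muscle (-1.22 ± 0.15 SE, adjusted p = 0.000211). Man2b1, the lysosomal alpha-mannosidase that trims N-linked glycans, was at 5.30, 5.63, 5.03, 5.45 and 5.54 in fiona arrays 1 to 5, ran from 5.81 through 6.69 to 7.62 in mdx and from 5.41 through 5.54 to 5.80 in normal muscle. The lowest mdx array lay just above the highest normal array. Man2b1 was 2.3-fold higher in mdx than in normal muscle (1.202 ± 0.25 SE, adjusted p = 0.0104) and 2.61-fold lower in fiona than in mdx muscle (-1.38 ± 0.27 SE, adjusted p = 0.00642).

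Glb1, the beta-galactosidase used as a marker of senescent cells, was near the control level, with 2 of 5 fiona arrays at or under it. Its level was 2.92, 2.94, 2.95, 2.24 and 2.99 in fiona arrays 1 to 5, ran from 2.92 through 3.48 to 4.41 in mdx and from 2.83 through 2.88 to 2.97 in normal muscle. The values as deposited differed by -0.70 between fiona and mdx muscle (limma adjusted p = 0.0257), and with the control level in place of those 2 arrays, a bound that was not tested, Glb1 was at least 0.56 lower on the log2 scale. The call was lost without fiona array 4, mdx array 4 or mdx array 5. Manba, the beta-mannosidase, averaged 3.42 ± 0.25 in fiona, 4.23 ± 0.71 in mdx and 3.31 ± 0.53 in normal muscle, with differences of -0.81 for fiona minus mdx (adjusted p = 0.0583) and 0.92 for mdx minus normal (adjusted p = 0.114) in the values as deposited. Of its arrays 1 of fiona and 1 of normal muscle lay at or under the control level, which set in their place gives at least 0.81 and 0.84 in size, and without mdx array 1 the first difference was -0.53.

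The other glycosidases were called in no comparison. Gaa, the acid alpha-glucosidase that breaks down glycogen and is lost in Pompe disease of muscle, averaged 9.52 ± 0.23 in fiona, 9.36 ± 0.34 in mdx and 9.59 ± 0.33 in normal muscle. Its differences had intervals from -0.60 to 0.13 for mdx minus normal and from -0.22 to 0.55 for fiona minus mdx. Gla, the alpha-galactosidase of Fabry disease, averaged 3.93 ± 0.32, 3.65 ± 0.28 and 3.66 ± 0.15 in fiona, mdx and normal muscle. Neu1, a sialidase, averaged 3.51 ± 0.46, 3.10 ± 0.17 and 3.17 ± 0.16 in the same groups, and its difference of 0.41 between fiona and mdx muscle had an adjusted p of 0.0613 and was 0.27 without fiona array 5. Another Neu1 probe set was called there, at 0.25 (adjusted p = 0.0141), and the dimmest gave -0.43 (adjusted p = 0.259). As deposited, 32.1% of all genes were called higher there, and these probe sets were not tested with median-centred arrays. Naglu, an enzyme of heparan sulfate breakdown, was at or under the control level on 16 of 17 arrays, so no group had a measured level.

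The sulfatases Sgsh, Ids and Galns, which remove sulfate groups from glycosaminoglycans, had 0 of 3 genes called in each comparison. Their differences ran from -0.08 to 0.41 for mdx minus normal and from -0.33 to 0.15 for fiona minus mdx. The 0.41 and -0.33 were those of Galns, and without mdx array 1 they were 0.20 and -0.13. Without mdx array 3, Ids was called lower in mdx than in normal muscle at -0.29 (limma adjusted p = 0.0389) and higher in fiona than in mdx muscle at 0.35 (adjusted p = 0.0174). All 4 other Ids probe sets were called higher in fiona than in mdx muscle, by 0.05 to 0.36, and 2 of them were at or under the control level on all 17 arrays. As deposited, 32.1% of all genes were called higher there. Centring each array on its median shifts each difference by -0.12, and these probe sets were not tested with that centring. Sgsh was at or under the control level on 4 of 5 fiona, 5 of 6 mdx and 6 of 6 normal arrays.

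Among the 5 lipid hydrolases and their activator, Asah1 and Ppt1 were called. Asah1, the acid ceramidase, was at 7.74, 7.94, 7.24, 8.20 and 7.87 in fiona arrays 1 to 5, ran from 8.03 through 8.74 to 8.98 in mdx and from 7.38 through 7.85 to 7.99 in normal muscle. Its mdx arrays lay above all normal arrays, and fiona array 4 alone reached into the mdx range. Asah1 was 1.76-fold higher in mdx than in normal muscle (0.82 ± 0.18 SE, limma adjusted p = 0.0137) and 1.75-fold lower in fiona than in mdx muscle (-0.80 ± 0.19 SE, adjusted p = 0.0135). Without the arrays of high Xist the second difference was -0.29 (adjusted p = 0.611).

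Ppt1, which removes palmitate from proteins, was at 5.26, 5.64, 5.04, 5.05 and 4.67 in fiona arrays 1 to 5, ran from 5.08 through 6.11 to 7.29 in mdx and from 3.6 through 4.48 to 5.77 in normal muscle. Of the 6 mdx arrays, 5 lay above all normal arrays, and mdx array 2 lay within the normal range. Ppt1 was 3.04-fold higher in mdx than in normal muscle (1.60 ± 0.37 SE, limma adjusted p = 0.0176). The difference between fiona and mdx muscle was -1.002 ± 0.38 SE, at an adjusted p of 0.0497, which was above 0.05 when any of 13 single arrays was left out and reached at most 0.115. Its second probe set was called in both comparisons, at 0.92 and -0.69.

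Psap, the precursor of the saposins that help lipid hydrolases reach their substrates, averaged 11.11 ± 0.19 in fiona, 11.61 ± 0.35 in mdx and 11.29 ± 0.43 in normal muscle, with an adjusted p of 0.0638 for fiona minus mdx. Smpd1, the acid sphingomyelinase, ran from 7.36 to 9.54 in fiona, 7.09 to 9.34 in mdx and 7.79 to 9.495 in normal muscle, and its interval for mdx minus normal, -1.10 to 0.73, leaves a wide range of differences. Lipa, the acid lipase that frees cholesterol and fatty acids from lipoproteins, depended on the probe set. The brightest averaged 4.85 ± 0.28 in fiona, 4.98 ± 0.38 in mdx and 4.73 ± 0.11 in normal muscle and was not called. Another averaged 3.32 ± 0.47, 5.46 ± 1.06 and 3.48 ± 0.53 in those groups and was called, at 1.98 for mdx minus normal (limma adjusted p = 0.0134) and -2.14 for fiona minus mdx (adjusted p = 0.011). The last was not called, so the Lipa probe sets disagreed.

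Npc2 and Npc1 hand cholesterol from one to the other for export from the lysosome, Npc2 as the soluble and Npc1 as the membrane protein. Npc2 was at 8.01, 8.88, 8.04, 8.81 and 8.09 in fiona arrays 1 to 5, ran from 9.33 through 9.58 to 10.69 in mdx and from 8.00 through 8.09 to 8.86 in normal muscle. The mdx arrays lay above all others, with array 1 the highest. Npc2 was 2.90-fold higher in mdx than in normal muscle (1.54 ± 0.24 SE, limma adjusted p = 0.00124) and 2.62-fold lower in fiona than in mdx muscle (-1.39 ± 0.26 SE, adjusted p = 0.00467), and its second probe set gave 1.22 and -1.198, both called. Npc1 was not called in any comparison. It was at 5.65, 4.71, 4.00, 5.62 and 4.84 in fiona arrays 1 to 5, ran from 4.50 through 5.67 to 6.40 in mdx and from 5.50 through 6.58 to 7.47 in normal muscle, with overlap between all groups. Its differences were -0.99 for mdx minus normal (adjusted p = 0.222) and -1.58 for fiona minus normal (adjusted p = 0.21).

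**Figure D2:**
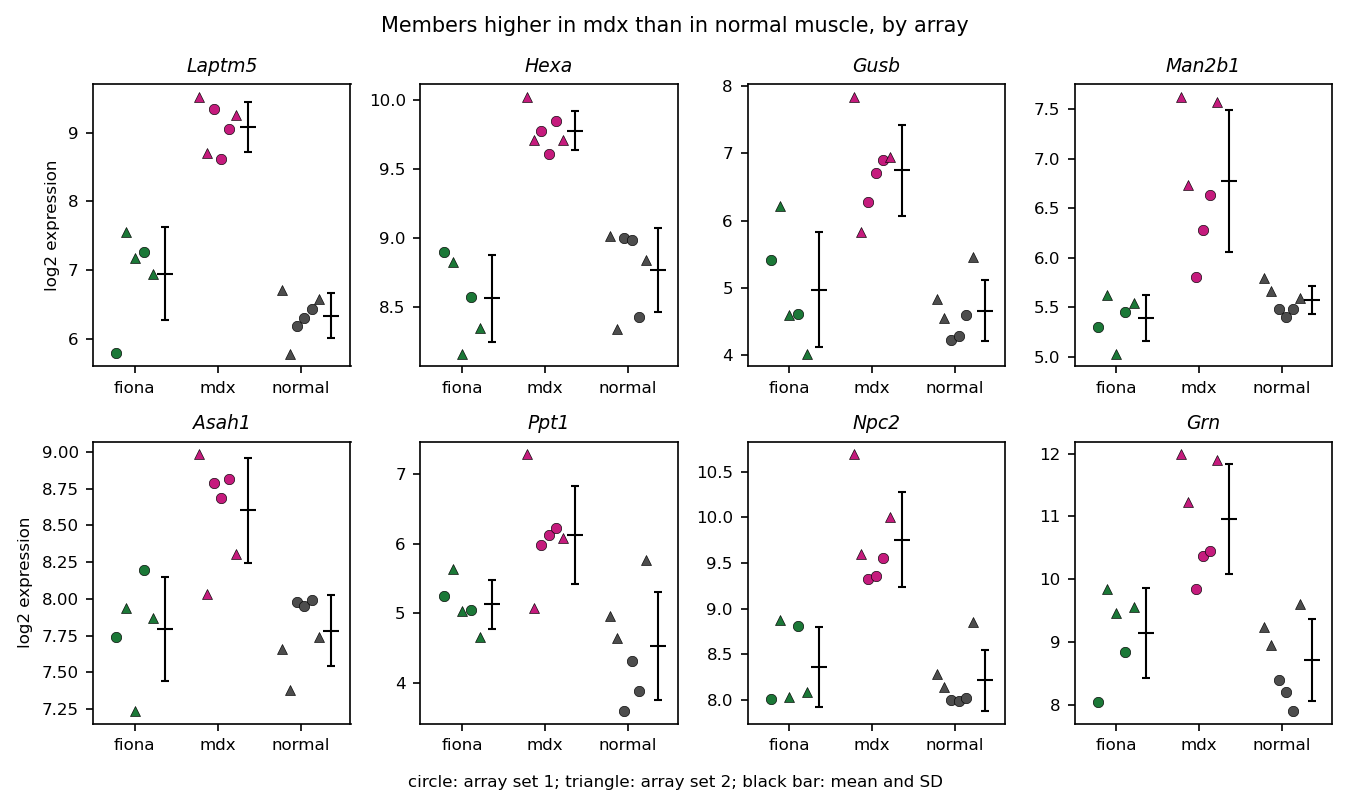
Log2 expression by array of the 8 genes called higher in mdx than in normal muscle, with fiona at the left, mdx in the middle and normal at the right of each panel. Circles are arrays of set 1, triangles arrays of set 2, and the black bar is the mean with its SD; the mdx arrays lie above the normal arrays in every panel except that of Ppt1, where mdx array 2 falls within the normal range.

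Grn, the precursor of the granulins and a secreted protein that is also taken to lysosomes, was at 8.05, 9.845, 9.46, 8.85 and 9.56 in fiona arrays 1 to 5, ran from 9.848 through 10.84 to 11.99 in mdx and from 7.91 through 8.67 to 9.61 in normal muscle. The highest fiona array and the lowest mdx array were almost level, and in each group the arrays of set 2 lay above those of set 1. Grn was 4.74-fold higher in mdx than in normal muscle (2.24 ± 0.42 SE, limma adjusted p = 0.00464) and 3.51-fold lower in fiona than in mdx muscle (-1.81 ± 0.44 SE, adjusted p = 0.0135). All 3 Grn probe sets were called in both comparisons. Tpp1, a peptidase that removes tripeptides from the ends of proteins, averaged 8.29 ± 0.11 in fiona, 8.15 ± 0.15 in mdx and 8.29 ± 0.20 in normal muscle, and the interval of its mdx minus normal difference ran from -0.34 to 0.05.

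The acid phosphatases were not called. Acp5, the tartrate-resistant enzyme of osteoclasts and some macrophages, ran from 2.88 to 5.15 in fiona, 4.23 to 6.65 in mdx and 2.84 to 5.37 in normal muscle. Its difference of 0.64 between mdx and normal muscle had an interval from -0.39 to 1.67, and it was 0.30 without mdx array 1 and 0.34 without normal array 3. Acp2, the phosphatase found in lysosomes of most cells, averaged 3.23 ± 0.24 in fiona, 3.17 ± 0.18 in mdx and 3.15 ± 0.19 in normal muscle.

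Of the 3 measured pump genes, Atp6v1a, the catalytic subunit that splits ATP, was called. It was at 4.00, 5.24, 4.71, 4.61 and 4.64 in fiona arrays 1 to 5, ran from 4.86 through 5.75 to 6.99 in mdx and from 3.89 through 4.47 to 5.78 in normal muscle. Fiona array 2 lay within the mdx range and the other 4 below it. Atp6v1a was 2.21-fold lower in fiona than in mdx muscle (-1.15 ± 0.40 SE, limma adjusted p = 0.0358). That call was lost without fiona array 1, 3, 4 or 5 or mdx array 1, 2, 5 or 6, with an adjusted p of at most 0.0834, and it was also lost with each array centred on its median. The mdx minus normal difference of 1.14 had an adjusted p of 0.118. A second probe set gave -0.27 there and -0.23 for fiona minus mdx (limma adjusted p = 0.748), and was called in neither. Atp6v1b2, which forms the catalytic ring with Atp6v1a, averaged 7.005 ± 0.38 in fiona, 7.47 ± 0.45 in mdx and 7.13 ± 0.34 in normal muscle. Atp6ap1, an accessory protein of the pump, averaged 9.12 ± 0.30, 9.43 ± 0.18 and 9.16 ± 0.25 in those groups, and neither was called. Other Atp6v1b2 probe sets were called for fiona minus mdx in opposite directions, at -0.999 (limma adjusted p = 0.0226) and 0.37 (adjusted p = 0.0236). As deposited, 32.1% of all genes were called higher there, and these probe sets were not tested with median-centred arrays.

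Mcoln1, the cation channel that releases calcium from lysosomes and has 2 copies of CACGTG upstream, averaged 6.99 ± 0.13 in fiona, 6.93 ± 0.14 in mdx and 6.93 ± 0.08 in normal muscle. The intervals of its differences ran from -0.15 to 0.14 for mdx minus normal and from -0.09 to 0.22 for fiona minus mdx. Cln3, the membrane protein lost in Batten disease, was at or under the control level on 14 of 17 arrays and rose above 4 on mdx array 1 alone, at 4.77.

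**Figure D3:**
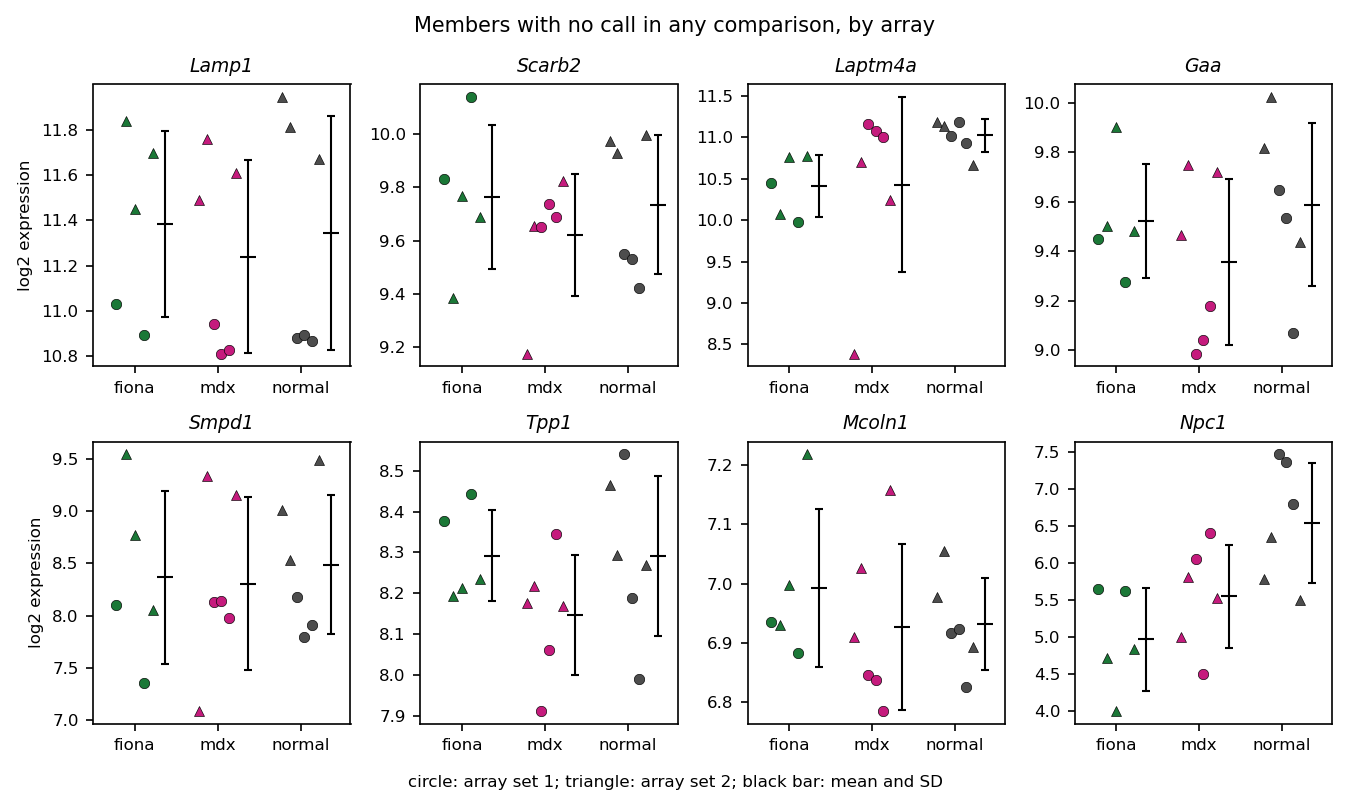
Log2 expression by array of 8 genes called in no comparison, with fiona at the left, mdx in the middle and normal at the right. Circles are arrays of set 1, triangles arrays of set 2, and the black bar is the mean with its SD; Lamp1 divides by array set in every group, and mdx array 1 is the lowest array for Scarb2, Laptm4a and Smpd1.

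In fiona against normal muscle 0 of the 33 genes were called in either direction, as were 0 of all 12393 genes (limma). At an unadjusted p under 0.05 there were 2 of the 33, Laptm5 and Npc1, and 2626 of all genes. The median difference of the 33 was 0.03, against 0.05 over all genes. The 95% interval lay within 1 log2 unit of 0 for 25 of the 33 genes and within 0.5 for 12, so larger differences remain possible for the others. Of the 8 genes higher in mdx than in normal muscle, the interval of fiona minus normal lay above 0 for Laptm5, from 0.04 to 1.19, and spanned 0 for the others. It ran from -0.53 to 0.12 for Hexa, from -0.75 to 0.38 for Man2b1, from -0.39 to 0.41 for Asah1 and from -0.40 to 0.69 for Npc2. It was wider for Gusb, from -0.52 to 1.14, for Grn, from -0.51 to 1.37, and for Ppt1, from -0.21 to 1.42.

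Lists of other lysosomal genes were set beside the 33. Of all genes, 3.22% were higher and 1.44% lower in mdx than in normal muscle. In fiona against mdx muscle 32.1% of all genes were higher and 6.79% lower. These shares stand beside all the lists below. Of 20 other hydrolases and cofactors measured, 2 were higher in mdx than in normal muscle (10%) and 9 were lower in fiona than in mdx muscle (45%), while 2 were higher there. Ifi30, a thiol reductase for antigens in lysosomes, was higher in mdx than in normal muscle by 2.46 (limma adjusted p = 1.44e-06) and gave -2.33 for fiona minus mdx (adjusted p = 6.65e-06). Prcp, a carboxypeptidase, gave 1.01 and -1.05 in the same comparisons, with adjusted p of 0.00123 and 0.0016. Of 17 other lysosomal membrane proteins, 2 were higher in mdx than in normal muscle, the tetraspanin Cd82 by 1.81 (adjusted p = 7.41e-05) and the metal transporter Slc11a1 by 1.42 (adjusted p = 0.0455), and 3 were lower and 3 higher in fiona than in mdx muscle. With median-centred arrays the hydrolases had 7 lower and 0 higher, without Ggh and Scpep1, and the membrane proteins 2 lower and 0 higher, without Glmp. Of the 3 membrane proteins first called higher (17.6%, against 32.1% of all genes), Clcn7 and Tpcn2 were at or under the control level on all 17 arrays.

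Of 18 other pump subunits, Atp6v0e and Tcirg1 were higher in mdx than in normal muscle, by 1.48 (limma adjusted p = 0.00323) and 1.05 (adjusted p = 0.0377). Against mdx muscle, fiona muscle had 3 of the 18 lower (16.7%) and 1 higher (5.56%), beside 6.79% and 32.1% of all genes. The 1 higher was Atp6v1c2, at or under the control level on all 17 arrays, and it lost its call with median-centred arrays. Of 19 genes that sort enzymes to lysosomes, the adaptor Gga2 was higher in mdx than in normal muscle by 1.35 (adjusted p = 0.00595) and the receptor Sorl1 was lower, at -1.14 (adjusted p = 0.00589). In fiona against mdx muscle Gga2 and both mannose 6-phosphate receptors, M6pr at -1.01 and Igf2r at -0.65, were lower, and Sorl1 was higher by 1.15 (adjusted p = 0.00913).

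Of 15 regulators of lysosomal genes, 0 were higher in mdx than in normal muscle and Rragd, a GTPase that recruits mTOR and Tfeb to lysosomes, was lower, at -1.56 (limma adjusted p = 0.0166). Tfeb averaged 7.92 ± 0.16 in fiona, 7.16 ± 0.34 in mdx and 7.70 ± 0.26 in normal muscle. It was higher in fiona than in mdx muscle by 0.76 (adjusted p = 0.0104), and its mdx minus normal difference of -0.54 had an adjusted p of 0.0557. Mtor was also higher in fiona than in mdx muscle, at 0.43 (adjusted p = 0.0364), and lost its call with median-centred arrays. Rragc, another GTPase of that complex, was lower, at -0.65 (adjusted p = 0.0156). Of 17 autophagy genes, 0 were called between mdx and normal muscle, and Bnip3, higher in fiona than in mdx muscle by 0.51 (adjusted p = 0.0341), lost its call with median-centred arrays.

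**Figure D4:**
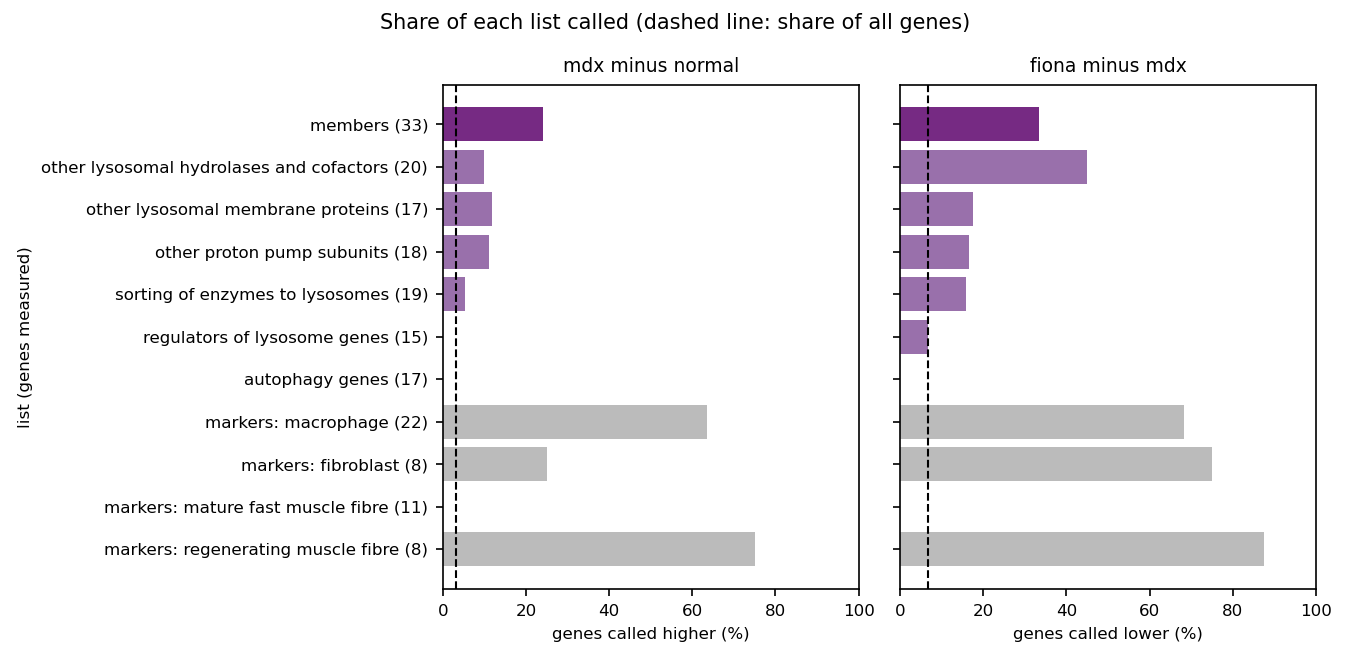
Percent of the measured genes called higher in mdx than in normal muscle (left) and lower in fiona than in mdx muscle (right). The number measured is in brackets, and the dashed line is the share of all genes (3.22% and 6.79%). The 33 lysosomal genes reach 24.2% and 33.3%. Macrophage markers reach 63.6% and 68.2%, regenerating-fibre markers 75% and 87.5%, and fibroblast markers 25% and 75%. Mature fast-fibre markers are at 0% in both panels. Osteoclast, neutrophil, lymphocyte and endothelial markers, also at 0% in both comparisons, are not drawn.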

How the data were processed

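The values are log2 expression per probe set, as deposited for 17 arrays. The submitters' processing notes name RMA and GCRMA, and neither is tied to the deposited values. Of 22690 probe sets, 64 controls, 691 with several symbols and 1555 with none were left out, and 20380 with 1 symbol covered 12393 genes. Each gene took its brightest probe set, and no filter on level was set.

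The 3 groups were compared with the lmFit and eBayes functions of limma 3.58.1, run in R 4.3.3 (1 mean per group, all arrays, no covariate), with Benjamini-Hochberg adjustment over all 12393 genes and calls at an adjusted p under 0.05; other probe sets of a gene were tested across all probe sets other than controls. The procedure was tested on simulated data. Their noise was drawn independently for each gene and array, without array sets or shifts between arrays, so that test does not cover those. Each difference is on the log2 scale and subtracts the group named last, and intervals are 95% intervals of the fit. The p-values set each difference against the spread between arrays within groups, with 1 array per animal. That spread includes the difference between the array sets. The control level is each array's median over 15 unspiked bacterial probe sets, and where arrays of the dimmer group lay at or under it, its value replaced theirs and the difference is a lower bound. The number of arrays and the spread within groups limit the precision, and arrays give no counts. Array sets are the sign of the largest residual component over 12174 genes outside the lists.

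All 35 listed genes are named, with values for called ones, and of each other list up to 4 called genes with the smallest adjusted p, or up to 3 markers with the largest change. The members and lists were chosen with earlier results of these data known. Alternatives changed the normalization between arrays, the probe set per gene, the filter on dim genes, the variance model, array weights, blocks and the arrays used. Same-numbered arrays of different groups were checked for shared deviations. Residuals correlated over 0.1 in 5 of 6 such pairs of mdx and normal arrays, where each number lies in the same array set. The numbers were not taken as pairs. Python 3.11.15 with matplotlib 3.10.9 drew the figures.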

Additional observations from a re-analysis of the deposited data

Results flagged for a closer look

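In 15 of the 99 sets of 1 gene in 1 group, the highest or lowest array stood further from the others than Dixon's 95% limit, and chance flags about 1 in 20 groups. On mdx array 1, Scarb2 (9.174) and Laptm4a (8.389) were far below the other mdx arrays, and Galns (4.424) and Cln3 (4.769) far above them. Other mdx arrays that stood alone were array 3 for Ids (5.219), array 4 for Atp6ap1 (9.763) and array 6 for Naglu (3.311), each above the rest. Among fiona arrays, Glb1 was low on array 4 (2.235), while Sgsh on array 3 (3.07), Lipa on array 5 (5.328), Acp2 on array 5 (3.657) and Atp6v1b2 on array 2 (7.685) were high. Among normal arrays, Npc2 (8.858) and Cln3 (3.181) were high on array 6, and Atp6ap1 was low on array 2 (8.673). All are log2 values. Of these genes, Npc2 and Glb1 were called in the comparisons, and Npc2 kept both calls when any single array was left out.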

How the results depend on the processing

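Of the 8 genes higher in mdx than in normal muscle, 3 were called within array set 2 alone and 5 without the arrays of high Xist, and all 8 stayed called under every other setting run. With genes gained, the number was 12 with array weights (Atp6v1a, Glb1, Lamp2 and Manba), 10 with the array set as a block (Atp6v1a and Lamp2) or the mean of probe sets (Lamp2 and Lipa), and 9 without the dimmest genes (Lamp2). Leaving out each array gave 8 to 9 genes higher, the ninth being Lamp2 without fiona array 1 or mdx array 1, and 0 to 1 lower. The 1 lower gene was Ids without mdx array 3, Npc1 with array weights and Gla within array set 1 alone. Of the 11 genes lower in fiona than in mdx muscle, 3 were called within array set 2 alone and 6 without the arrays of high Xist. The number lower there was 9 with median centring, quantile normalization or array weights and 14 with the array set as a block, and leaving out each array gave 8 to 13. Without fiona array 4 or mdx array 5 the number was 8, and without fiona array 2, which added Atp6v1b2 and Psap, it was 13. Genes higher in fiona than in mdx muscle numbered 1 with the mean of probe sets (Ids), 1 with trended variance and 1 with the array set as a block (Neu1 in both), 3 within array set 1 alone (Gla, Naglu and Sgsh), and 0 to 2 when each array was left out. Naglu turned to 0.075 in fiona against mdx muscle within array set 1, at or under the control level. Fiona minus normal gave 0 higher and 0 lower in all settings, with 0 to 0 when each array was left out. The smaller sets hold fewer arrays, and otherwise the cause was not tested.

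With the replicate number as a block, 6 of the 11 stayed called, and Lamp2, Glb1, Ppt1, Grn and Atp6v1a did not. The residuals of same-numbered arrays correlated at -0.489 to 0.613, over 0.1 in 7 of 16 pairs, 5 of them among the 6 of mdx and normal arrays, where each number lies in the same array set in both groups and the other pair gave 0.0892. In all, 2 of 17 arrays were closest to an array of their own number, so the numbers were not taken as pairs.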
